A study of Mus musculus with 868 samples.

Results

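The keratin genes of this mouse multi-organ data set are the 47 of its 24421 gene symbols that consist of Krt and a number, with Krt20 left out and symbols that end in a letter, such as Krt6a, not counted. The rule uses names and no measured value, although the family was taken up with earlier results of these data known. Of the 47 genes, 24 encode type I keratins, 22 encode type II keratins, and Krt222 encodes a keratin-like protein of neither class. GENCODE M21 (mm10) places 46 of them, all but Krt85, with 24 on chromosome 11 and 22 on chromosome 15. Krt222 is among the 46, so these are not the counts of type I and type II genes. They were grouped by where they are known to be made: 5 keratins of simple epithelia, 3 basal keratins, 8 suprabasal keratins of epidermis, 5 keratins of mucosa and cornea, 2 activation keratins, 9 of the inner root sheath and companion layer of the hair follicle, 13 of the hair shaft, and 2 others.

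Libraries of 3′ mRNA ends were made from 24 tissues of C57BL/6N mice, which share this strain in all groups and carry no transgene or deletion in the labels. There were 868 libraries in 18 treatment groups, with 2 libraries per group and tissue except for 4 in Asenapine Brain and in Sofosbuvir Jejunum. The control groups were Untreated, Sucrose (5% sucrose) and CMCTween (a vehicle of 0.5% CMC with 0.25% Tween80). The drug groups were APAP (labelled 2 hours), Sofosbuvir, Alendronate, Risedronate, Asenapine, Lurasidone, Olanzapine, Aripiprazole, Cisplatin, Clozapine, Dox (2 mg/mL), EMPA (oral, 2 weeks), Lenalidomide, Repatha and Teriparatide. Other doses, times, ages and the vehicle of each drug are not given in the sources used here. Nothing says that 2 libraries of a group came from different animals, so p-values measure only the spread between these libraries, which may be technical.

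The groups fall into 3 library sets that an earlier look at the expression values had found and that the labels do not name. Set A holds Untreated, Sucrose, APAP and Sofosbuvir, set B holds Alendronate, Risedronate, Asenapine, Lurasidone and Olanzapine with no control, and set C holds CMCTween and the other 8 drugs. Drugs were therefore compared only within a set: APAP and Sofosbuvir with the mean of Untreated and Sucrose, each drug of set B with the mean of its other 4 drugs, and each drug of set C with CMCTween. Levels are in CPM, a gene's count scaled by the total of its library. Fold changes, their standard errors (SE) and adjusted p-values are from edgeR's quasi-likelihood test with Benjamini-Hochberg adjustment over all genes tested, and a gene is said to have risen or fallen where the adjusted p is under 0.05.

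Keratins are the proteins of the intermediate filaments of epithelial cells. A type I and a type II keratin pair to build a filament, and the pair changes with the epithelium: Krt8 with Krt18 in simple epithelia, Krt5 with Krt14 in the dividing basal layer of stratified epithelia, Krt1 with Krt10 in the differentiating epidermis, Krt4 with Krt13 in the lining of the upper digestive tract and Krt12 in the cornea. Krt16 and Krt17 are made when a stratified epithelium is wounded or activated, and a large set of hair keratins is made in the growing hair follicle.

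The promoters of the hair follicle keratins are shown because these genes rose together in 1 skin library, described below. RefSeq promoters (GRCm38.p6) were matched for 33 of the 47 genes, with 34 start sites. The motif TATAAA was searched on the gene's own strand, wholly between 50 and 21 bases before the start. It was found in 9 of 16 promoters of hair follicle keratins (56.2%), in 3 of 18 promoters of the other keratins (16.7%) and in 719 of 32851 promoters of all genes (2.19%). The windows below run from 50 to 21 bases before the start, 5′ to 3′ on the gene's strand, with TATAAA in capitals. Krt25, Krt28, Krt71 and Krt73 belong to the inner root sheath, and Krt34 and Krt31 to the hair shaft.
Krt25 (chr11:99322972-99323001, minus strand): gaacacccttgagaatcgtcTATAAAaggg
Krt28 (chr11:99374924-99374953, minus strand): agacagcccccacaaccgtgTATAAAagct
Krt71 (chr15:101743118-101743147, minus strand): gccaagcataTATAAAggcacctgctggtc
Krt73 (chr15:101802381-101802410, minus strand): gcaattgttctcttgagctcTATAAAgggg
Krt34 (chr11:100041575-100041604, minus strand): ctccacccactggtatgggTATAAAaagac
Krt31 (chr11:100050572-100050601, minus strand): ccacaccctctgtagaaggctTATAAAgtc
For comparison, the windows of Krt10 (suprabasal epidermis) and Krt12 (cornea) also hold the motif, and those of Krt5 (basal layer) and Krt8 (simple epithelia) do not.
Krt10 (chr11:99389385-99389414, minus strand): cctgtgagacacgccctctcagtaTATAAA
Krt12 (chr11:99422280-99422309, minus strand): cgcaacacccacctcccagccTATAAAggc
Krt5 (chr15:101712926-101712955, minus strand): gcccaacccacttctaaggggataaaaggg
Krt8 (chr15:102004363-102004392, minus strand): cactcaggtaagaggcccttttccctcccc
In Krt25, Krt28 and Krt73 the motif begins 30 bases before the start, and in Krt71 it begins 40 bases before it. A match is a description of letters and shows no binding.

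Library totals ran from 451154 to 12811780 counts, with a median of 4422230 in Untreated and 855682 in all other libraries, so 3 counts stand for 0.234 CPM in the deepest library and for 6.65 CPM in the shallowest. No 2 libraries of a group were identical. Before the results, 2 libraries stand apart. In ThyroidG, Untreated replicate 1 held 520.4 CPM of Krt4 and 127 CPM of Krt13 while replicate 3 held 0 of both, and no other library of the tissue exceeded 5.76 CPM for the mucosal and corneal keratins together. The same library held 78.2 CPM of Sprr3, a gene of squamous lining, against 0 CPM in replicate 3. In Skin, CMCTween replicate 3 held most of the hair keratin counts of the tissue. Counts of keratin calls in Skin against CMCTween are given with and without it. Fold changes in the Skin of Cisplatin and Dox are given without it unless stated. Comparisons with the mean of the other 8 groups of set C include it.

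Summed over the 47 genes, untreated Skin held the most keratin mRNA (13731 to 14598 CPM over its 2 libraries), followed by Stomach (6870 to 7152 CPM), Colon (2692 to 3000 CPM), Ileum (1917 to 2083 CPM) and Eye (979 to 1421 CPM). Skeletal muscle (SkMuscle) was lowest at 8.45 to 13.8 CPM. The libraries of neighbouring tissues in this order of the highest 5 did not overlap. Of the 47 genes, 21 reached 10 CPM on average in some untreated tissue, 15 of them in Stomach and 13 in Skin, and 26 did so in none. Of these 26, 18 reached 10 CPM in some treated or untreated library. In whole tissue, fewer cells of a type and less RNA per cell cannot be told apart.

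**Figure D1:**
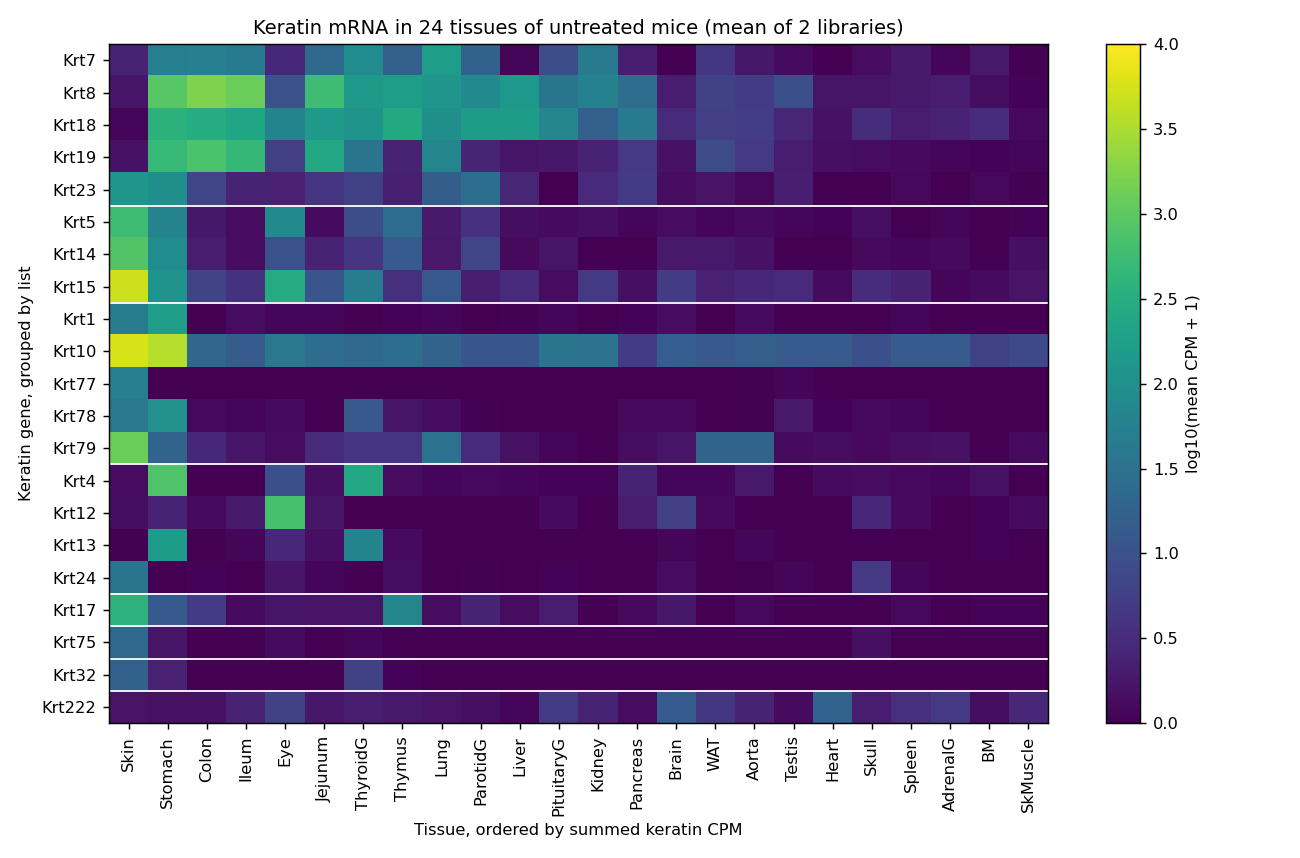
Mean keratin mRNA of the 2 untreated libraries (colour, log10 of mean CPM plus 1) for the 21 keratins at 10 CPM or more in some tissue (rows, grouped by list with white lines) in 24 tissues (columns, ordered by summed keratin CPM). Skin and Stomach hold most of the stratified keratins, and Krt8 and Krt18 run along the gut, Lung, ParotidG, ThyroidG, PituitaryG and Pancreas but are near 0 in AdrenalG, and Krt19 is high in the gut, Lung and ThyroidG only among these. The Krt4 and Krt13 colour of ThyroidG comes from 1 of its 2 libraries.

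Keratins of simple epithelia were high in the gut and reached several glands, but not AdrenalG, where Krt8 stood at 0.505 and 1.67 CPM. Krt8 stood at 1609 and 1808 CPM in Colon, at 1326 and 1157 CPM in Ileum, at 756 and 401 CPM in Jejunum and at 1003 and 803 CPM in Stomach. Its partner Krt18 was lower in these tissues, at 309.9 and 283 CPM in Colon and 415 and 332 CPM in Stomach, but these are counts of 3′ ends, 1 per transcript, and the ratio also depends on how well each end is primed and placed. In other tissues, among them Thymus, ParotidG, Liver, PituitaryG, Pancreas and Eye, the order of the pair was the other way. Krt18 stood at 243 and 283 CPM in Thymus against 157 and 185 CPM for Krt8, and at 65.6 and 60.6 CPM in Eye against 9.91 and 7.69 CPM. Krt19, which lacks the tail of other keratins, stood at 688 and 798 CPM in Colon and 68.1 and 64.7 CPM in Lung. Krt7, a keratin of ducts and lining, was the leading keratin of Lung at 165 and 181 CPM. Liver, whose hepatocytes are known to make Krt8 and Krt18 alone, held 169 and 152 CPM of Krt18 and 135 and 129.8 CPM of Krt8, with Krt7 at 0.324 and 0 CPM. Kidney had Krt8 at 51.3 and 63.1 CPM and Krt7 at 44.3 and 45.7 CPM.

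The basal keratins were led by Krt15 in Skin, at 5042 and 5001 CPM, above Krt14 at 829 and 785 CPM and Krt5 at 600.4 and 538 CPM. The pair Krt5 and Krt14 reached 10 CPM together in 3 tissues only, Skin, Stomach and Thymus. Stomach, which in the mouse has a squamous forestomach, held 95.5 and 76.0 CPM of Krt14 and 62.4 and 60.8 CPM of Krt5. In Eye, Krt5 stood at 70.3 and 93.3 CPM and Krt15 at 149.6 and 425 CPM, with the libraries far apart for Krt15. Thymus, whose medulla holds keratinised epithelial cells, had Krt5 at 22.5 and 28.1 CPM and Krt17 at 71.6 and 60.3 CPM.

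Krt10 was the leading keratin of both Skin (6098 and 5414 CPM) and Stomach (3549 and 3625 CPM). It also reached 10 CPM in 20 of the 24 tissues, in 18 of which Krt1, its partner, did not. In the tissues without stratified epithelium its level was low, for example 18 and 8.47 CPM in Spleen and 12.2 and 14.3 CPM in Heart. Krt10 overlaps a gene model on the opposite strand, and whether the counting used strand is not given in the sources used here, so low Krt10 counts can hold reads of that model. The same limit holds for Krt5, Krt7, Krt8, Krt12, Krt32, Krt75, Krt76 and Krt80. Krt1 stood at 52.4 and 45.3 CPM in Skin and at 167 and 181 CPM in Stomach. Krt79, known from sebaceous and infundibular cells, stood at 1279 and 1250.3 CPM in Skin, and at 19.5 and 17.6 CPM in WAT and 18.1 and 19.5 CPM in Aorta. Krt77 was at 53.6 and 52.2 CPM in Skin and reached 10 CPM nowhere else.

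Krt12, the keratin of the corneal epithelium, was the leading keratin of Eye at 617 and 753 CPM and was under 10 CPM in all other untreated tissues. Krt4 and Krt13, the pair of the upper digestive lining, stood at 777 and 781 CPM and at 149.6 and 171 CPM in Stomach. The activation keratin Krt17 was at 390.4 and 380.4 CPM in Skin. Krt16 was under 10 CPM on average in every untreated tissue, with 6.17 and 10.7 CPM in Skin. Among hair follicle keratins, 2 reached 10 CPM in untreated Skin, Krt75 of the companion layer at 22.0 CPM in both libraries and Krt32 of the hair cuticle at 16.1 and 16.9 CPM. Krt222 was highest in Heart (16.9 and 18 CPM) and Brain (12.6 and 14.2 CPM).

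Over the 24 tissues, the untreated means of the partners Krt8 and Krt18 had a Spearman correlation of 0.93 and both reached 10 CPM in the same 12 tissues, with Krt18 alone in 1 more. The correlation was 0.76 for Krt5 with Krt14, 0.61 for Krt4 with Krt13 and 0.53 for Krt1 with Krt10. These are descriptions over 24 tissues that share library preparation, and Krt4 with Krt13 rests in part on the single ThyroidG library.

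Neighbouring epithelial tissues were compared in a fit of all 48 untreated libraries, in which 26 keratins passed the filter on low counts and 21 did not. Between Skin and Stomach, 19 of the 26 differed, 11 higher in Skin and 8 higher in Stomach, where 38.4% of all genes tested differed. Krt8 (log2 difference -10.32 ± 0.36, adjusted p = 4.65e-22) and Krt19 (-9.87) were higher in Stomach. Krt18 had 2 counts and Krt13 had 1 count in the Skin libraries against 5313 and 2241 in Stomach. Krt79 (log2 difference 5.93), Krt15 (5.34), Krt17 (4.73), Krt14 (3.02 ± 0.33, adjusted p = 7.92e-09) and Krt5 (3.0 ± 0.35, adjusted p = 1.18e-08) were higher in Skin. Krt1 was higher in Stomach (-2.03 ± 0.27, adjusted p = 9.78e-07), and its partner Krt10 did not pass the threshold (0.48 ± 0.33, adjusted p = 0.273).

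Between Skin and Eye, 22 of 26 differed, 16 of them higher in Skin, beside 55.5% of all genes. Krt12 was higher in Eye (log2 difference -10.60 ± 0.47, adjusted p = 2.38e-16), while Krt10 (7.34) and Krt5 (2.85) were higher in Skin. Between Stomach and Colon, 16 of 26 differed beside 25.5% of all genes. The 14 that were higher in Stomach held the stratified keratins and Krt18 (0.60 ± 0.20, adjusted p = 0.0194), and the 2 that were higher in Colon were Krt8 (-0.65 ± 0.21, adjusted p = 0.018) and Krt85. Colon and Ileum differed in 2 of 26, Krt17 (3.69 ± 0.93, adjusted p = 0.00446) and Krt19 (0.68 ± 0.20, adjusted p = 0.0144), both higher in Colon, beside 18.4% of all genes, and 0 or 1 remained past the threshold when a library was left out. Kidney and Liver differed in 4 of 26 beside 41.3% of all genes. Krt7 (6.99 ± 0.44, adjusted p = 2.14e-15) and Krt222 were higher in Kidney, and Krt18 (-3.91 ± 0.24, adjusted p = 5.07e-16) and Krt8 (-1.78 ± 0.23, adjusted p = 3.25e-08) in Liver.

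Across 16 contrasts in each of 24 tissues, 37 keratins were tested in at least 1 tissue and 10 in none, which gave 2448 tests. In 229 of these (9.35%) a keratin changed, 66 times up and 163 times down, beside 2.96% of all genes. Skin held 154 of the 229, 27 up and 127 down of 464 tests, beside 5.68% of all genes there. Without CMCTween replicate 3 the Skin count was 60, 40 up and 20 down, beside 5.51%. In the other 23 tissues 75 of 1984 tests passed (3.78%), 39 up and 36 down, beside 2.83%, so outside Skin the keratin share was near that of all genes. No keratin was called in 333 of the 384 contrasts. No keratin was tested in BM, so its 16 contrasts could give no call.

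Outside Skin, Cisplatin had 27 of the 75 calls, 23 up and 4 down, followed by Sucrose with 11 and Olanzapine with 8, while Dox, Clozapine, Aripiprazole and Lenalidomide had 0 of 124 tests each by edgeR. At an unadjusted p under 0.05 these 4 drugs had 21, 14, 10 and 9 tests, and DESeq2 called 2, 3, 0 and 1. Of the 75 calls outside Skin, Stomach held 24, Thymus 12 and Colon 8. The share of all genes by drug or by tissue is not given beside these counts, so they do not set keratins apart. With Cisplatin that share was 3.67% in Stomach and 43.6% in Thymus. Over all 24 tissues, Skin included, Krt8 was called most often (14 of 240 tests, 4 up and 10 down), then Krt5 (12 of 96), Krt1 (11 of 32), Krt18 (10 of 224) and Krt10 (9 of 368). Krt14 also had 9 calls, of 80 tests. All calls of Krt8 and Krt18 were outside Skin, and Krt10 there had 4 up and 2 down of 352 tests, Krt5 4 up and 1 down of 80, Krt1 1 up and 3 down of 16 and Krt14 3 up and 1 down of 64. Contrasts of a set share their control libraries, so these calls are not independent of each other.

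In Skin, CMCTween replicate 3 held 13346 CPM of inner root sheath and companion layer keratins and 11328 CPM of hair shaft keratins, against 127 and 94.6 CPM in CMCTween replicate 4. The medians of the other Skin libraries were 60.4 and 27.6 CPM. In that library Krt25 of the inner root sheath stood at 5592 CPM against 35.2 CPM in replicate 4. Krt71 stood at 3352 CPM against 17.2 CPM, and the hair shaft keratin Krt81 at 4095 CPM against 27.4 CPM. The library was low in suprabasal keratins at the same time, with 2341 CPM of Krt10 against 7063 CPM. Other genes of the growing hair follicle were high with them: Tchh, the protein that hardens the inner root sheath, stood at 12436 CPM against 80.5 CPM, and S100a3 of the hair cuticle at 1914 CPM against 14.1 CPM.

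Single libraries of other groups were raised in the same 2 lists to a smaller extent. Risedronate replicate 1 held 2128 CPM of inner root sheath and 622 CPM of hair shaft keratins, while Risedronate replicate 2 held 131 and 31.0 CPM. Teriparatide replicate 2 (428 and 261 CPM) and Olanzapine replicate 2 (382 and 202 CPM) came next. In each of these 3 groups the other library was lower.

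**Figure D2:**
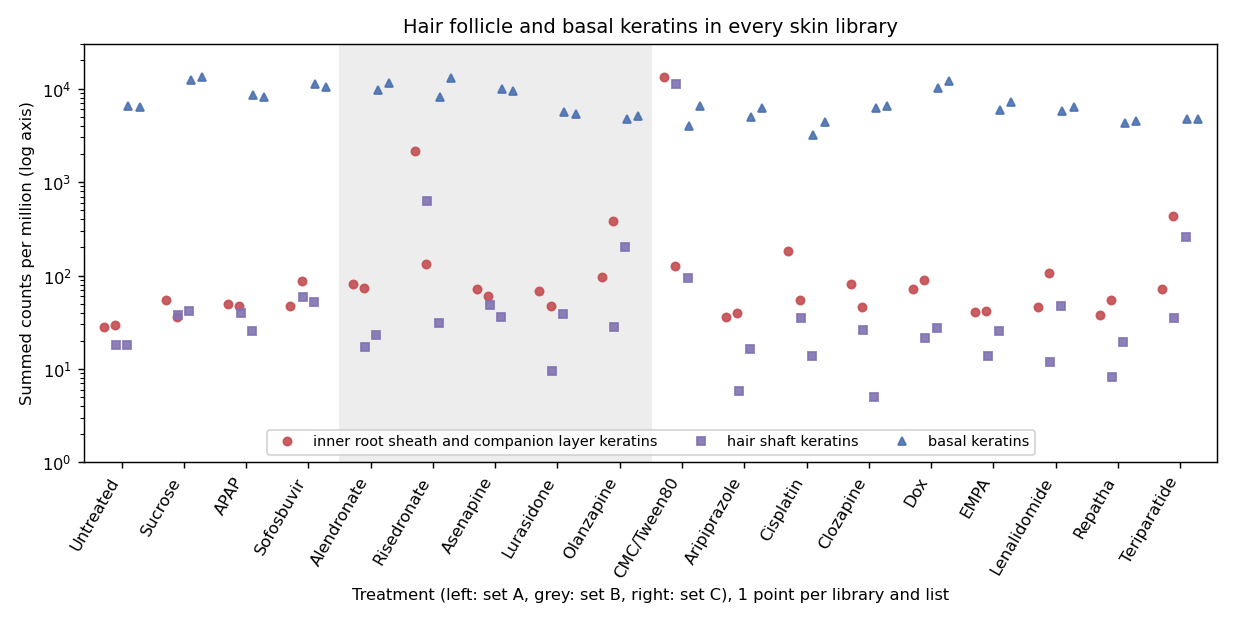
Summed CPM (log axis) of inner root sheath and companion layer keratins, hair shaft keratins and basal keratins in each of the 36 Skin libraries, by treatment, with set B shaded. In CMCTween (CMC/Tween80) 1 library holds 13346 and 11328 CPM of the hair lists and the other holds 127 and 94.6 CPM, while the basal keratins of all libraries stay between 3171 and 13354 CPM.

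With both CMCTween libraries as the reference, the hair follicle keratins gave 109 falls among 128 tests of 16 genes over the 8 drugs of set C, of 130 keratin calls in all. Without CMCTween replicate 3 none of the 16 fell in any of the 8 contrasts and 11 keratin calls remained past the threshold, 5 in Dox and 6 in Cisplatin. By drug, with both libraries, the calls among 29 keratins were 16 down and 6 up in Dox (10.7% of all genes), 20 down in Cisplatin (15.7%), 16 down and 1 up in EMPA (1.86%), 15 down and 1 up in Aripiprazole (2.84%), 14 down and 1 up in Clozapine (1.3%), 14 down in Repatha (2.08%), 12 down and 2 up in Lenalidomide (0.905%) and 11 down and 1 up in Teriparatide (2.08%). Without replicate 3, EMPA, Aripiprazole, Clozapine, Repatha, Lenalidomide and Teriparatide had 0 keratin calls by edgeR, beside 0 to 7 calls over all genes, with 2 to 8 keratins each at an unadjusted p under 0.05. The 8 contrasts of sets A and B do not use this library as a reference and share only its spread. With it they held 24 keratin calls. The share of all genes over these 8 alone is not given, and over all Skin contrasts it was 5.68%. Without the library the keratin count was higher, and Risedronate had the most calls.

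In the Skin of Cisplatin, the basal pair was low. Krt14 stood at 309 and 542 CPM, against 857 to 1789.6 CPM in the other 16 libraries of set C, and Krt5 at 487 and 803 CPM against 1121 to 2603 CPM. Neither range overlapped with that of the other groups. Against CMCTween replicate 4 alone, with the lone library assumed to vary like the other groups, Krt14 fell, with a log2 fold change of -1.51 ± 0.21, adjusted p = 1.54e-05, as did Krt5, with -1.23 ± 0.20, adjusted p = 0.000112. In the same comparison 4 other keratins fell, beside 7.93% of all genes called. Krt79 (-1.26 ± 0.18, adjusted p = 2.16e-05) stood at 197 and 224 CPM, below the 379 to 654 CPM of the others. Krt24 (-2.0 ± 0.47, adjusted p = 0.00533) stood at 6.12 and 16.7 CPM, also below the others. Krt1 (-1.49 ± 0.38) and Krt10 (-0.90 ± 0.18) fell too. Within set C their levels overlapped only with CMCTween replicate 3, which held 28.3 CPM of Krt1 and 2341 CPM of Krt10.

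Not all keratins of the epidermis followed. Krt15, the third basal keratin, had a log2 fold change of -0.43 ± 0.20, adjusted p = 0.215 and Krt17 of 0.02 ± 0.19, adjusted p = 0.964. With both CMCTween libraries Krt17 was among the falls (-0.66 ± 0.22, adjusted p = 0.0427), since CMCTween replicate 3 held 1578 CPM of it against 728 CPM in replicate 4. Against the mean of the other 8 groups of set C, 7 keratins were lower in Cisplatin and Krt23 was higher (0.66), beside 18.8% of all genes. Of 11 tested genes of the cornified layer, 1 fell without CMCTween replicate 3, with a median log2 fold change of -0.06. The summed skeletal muscle markers were higher in both Cisplatin libraries (20839.7 to 22102 CPM) than in the other libraries of set C (433 to 20034 CPM), and their part in the keratin values was not tested.

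In the Skin of Dox, keratins of the basal and suprabasal layers were high. Krt1 stood at 189.6 and 168 CPM against 12.2 to 149.9 CPM in the other 16 libraries of set C, Krt5 at 2603 and 2551 CPM against 487 to 1777 CPM, and Krt15 at 5678 and 7676 CPM against 1622 to 4170.3 CPM. Krt10 and Krt14 were also above all 16 others. Without CMCTween replicate 3, 5 keratins rose, beside 8.54% of all genes called: Krt1 (log2 fold change 1.54 ± 0.30, adjusted p = 0.000848), Krt15 (0.85 ± 0.21, adjusted p = 0.00932), Krt5 (0.76 ± 0.21, adjusted p = 0.0208), Krt17 (0.65 ± 0.19, adjusted p = 0.0288) and Krt10 (0.63 ± 0.19, adjusted p = 0.0352). Krt14 had 0.50 ± 0.22, adjusted p = 0.182. Against the mean of the other 8 groups 10 keratins were higher, beside 20.7% of all genes. The muscle markers moved the other way from Cisplatin: their sum was 433 to 664 CPM in Dox and 2223 to 22102 CPM in the others, and all 4 genes fell. Of 8 desmosome and linker genes, 4 rose without CMCTween replicate 3. The part of muscle content in the keratin values was not tested.

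**Figure D3:**
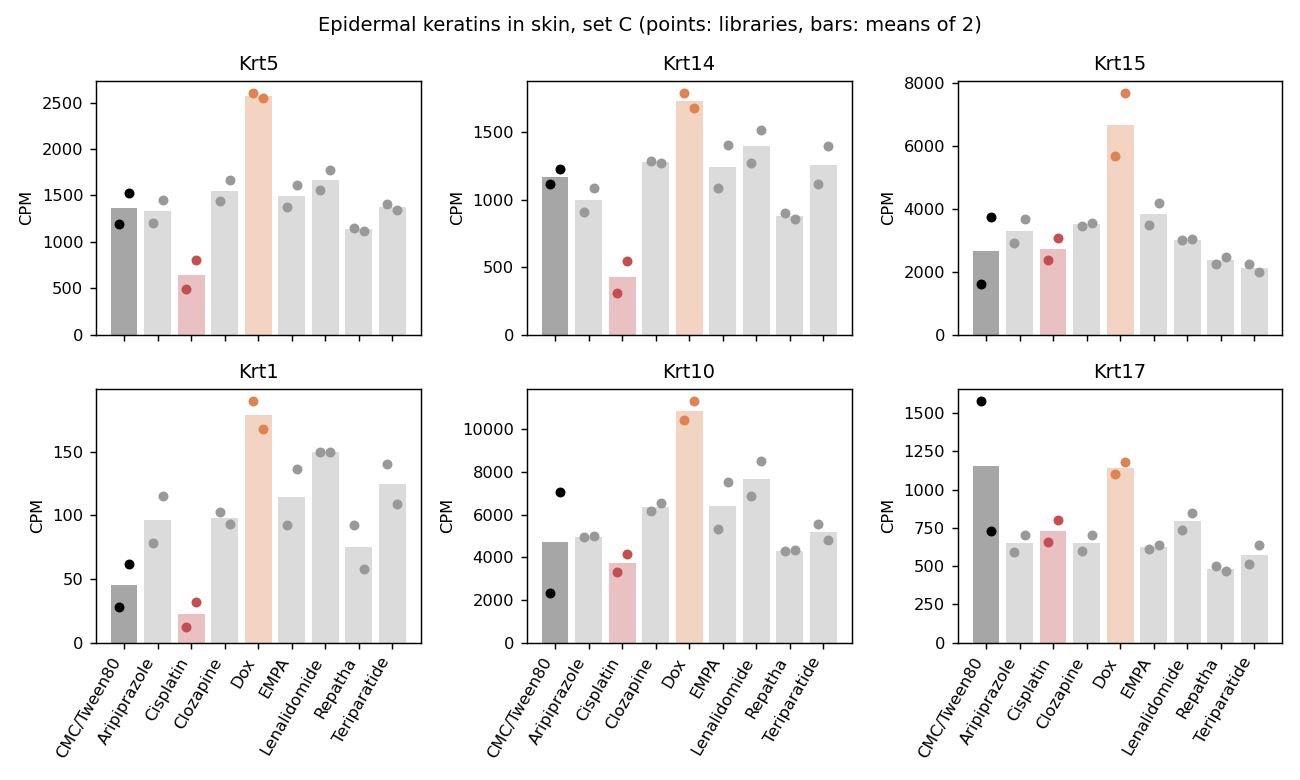
CPM of 6 epidermal keratins in the 18 Skin libraries of set C, with points for libraries and bars for the means of 2 (CMC/Tween80 is CMCTween). Krt5 and Krt14 are lowest in Cisplatin, Krt1, Krt5, Krt10, Krt14 and Krt15 are highest in Dox, and the CMCTween libraries lie apart for Krt10, Krt15 and Krt17.

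Within set A, Sucrose was compared with Untreated in Skin, where 4 keratins rose and 1 fell beside 11.9% of all genes. Krt5 stood at 1373 and 1333 CPM in Sucrose and 600.4 and 538 CPM in Untreated (1.17 ± 0.18, adjusted p = 0.000281), and Krt15 at 9789 and 10756 CPM and 5042 and 5001 CPM (0.96 ± 0.23, adjusted p = 0.0098). Krt10 (0.85) and Krt14 (0.56) also rose. Krt80 had 0 counts in Sucrose and 50 in Untreated, at least 2.1-fold lower by a floor of 3 counts over the group. The muscle marker sum was 4512 and 367 CPM in Sucrose and 10259 and 10441 CPM in Untreated, and its part was not tested. Within set B, 6 keratins rose in Risedronate beside 2.86% of all genes. Without CMCTween replicate 3, which enters this contrast only through the spread, 17 of 29 rose beside 655 of 11712 genes called. Krt14 (0.59 ± 0.14, adjusted p = 0.0222) was above all 8 other libraries of set B in both, and Krt5 (0.56 ± 0.13, adjusted p = 0.0236) overlapped with them. The activation keratin Krt16 stood at 159.8 and 90.9 CPM against 14.2 to 139 CPM in the other 8 libraries of set B (1.90 ± 0.47, adjusted p = 0.0266), with overlap. The other 3 of the 6 calls, Krt25, Krt27 and Krt71, rest on 1 library: Krt25 stood at 1024 CPM in replicate 1 and at 3.21 CPM in replicate 2. Further hair follicle keratins were high in replicate 1 alone, such as Krt31 (84.0 against 3.21 CPM) and Krt73 (105 against 0 CPM). Krt75 was high in both, at 82.8 and 122.9 CPM. The larger count without CMCTween replicate 3 may thus also rest in part on 1 library.

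The largest change of a keratin outside Skin, among called keratins with a mean of 5 CPM or more in both groups, was that of Krt16 in the Stomach of Cisplatin. The comparisons from here to the end, apart from Kidney with Cisplatin and Liver with APAP, were chosen after their values were seen. Krt16 stood at 732 and 785 CPM in Cisplatin and at 17.5 and 11 CPM in CMCTween, a log2 fold change of 5.63 ± 0.33, adjusted p = 2.11e-14, and the other 16 libraries of set C held 4.82 to 23.2 CPM. The basal pair moved with it. Krt14 rose from 175 and 155 CPM to 784 and 777 CPM (2.14 ± 0.20, adjusted p = 6.04e-09), and Krt5 from 175 and 192 CPM to 543 and 669 CPM (1.62 ± 0.20, adjusted p = 1.92e-06).

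In all, 6 of 16 tested keratins rose and 0 fell, beside 3.67% of all genes, and the median log2 fold change of the 16 was 0.22 against -0.01 for all genes. Krt17, the other activation keratin, rose from 33.7 and 30.8 CPM to 79.8 and 82.4 CPM (1.22 ± 0.30, adjusted p = 0.0139). Krt13 (0.84 ± 0.18, adjusted p = 0.00482) and Krt4 (0.65 ± 0.15, adjusted p = 0.0107) rose by less. Krt10, the most abundant keratin of Stomach, had 0.14 ± 0.18, adjusted p = 0.777. The simple keratins Krt8 (-1.15 ± 0.36, adjusted p = 0.0693), Krt19 (-1.10 ± 0.43, adjusted p = 0.164) and Krt18 (-0.45 ± 0.28, adjusted p = 0.449) did not pass the threshold. Leaving out CMCTween replicate 4 or Cisplatin replicate 1 left 3 calls, with Krt17, Krt13 and Krt4 lost and Krt16, Krt14 and Krt5 kept.

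Of 7 genes of squamous mucosa, 4 rose with these keratins: the cornified envelope precursors Sprr2d (log2 fold change 2.50), Sprr1a (0.87) and Sprr3 (0.76), and Cnfn (1.06). Their list summed to 3155 to 3589 CPM in Cisplatin and 962 to 2051 CPM in the others of set C. The transglutaminases Tgm1 (1.83) and Tgm3 (2.0) and the desmosome genes Pkp1 (1.14), Pkp3 (1.08) and Dsp (0.49) rose too. In all, 3 of 11 tested genes of the cornified layer and 3 of 8 desmosome and linker genes rose. The share of forestomach in each sample is not given, and its part in these values was not tested.

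**Figure D4:**
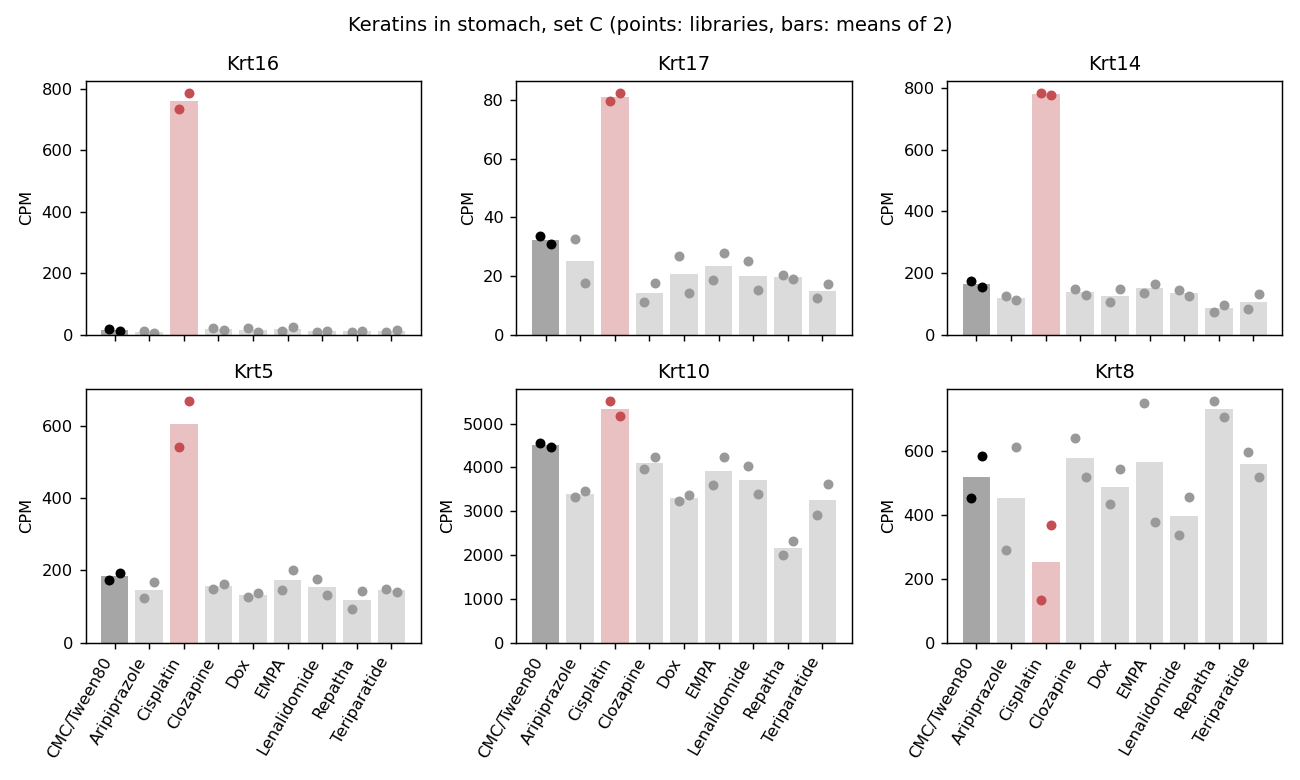
CPM of 6 keratins in the 18 Stomach libraries of set C, with points for libraries and bars for the means of 2 (CMC/Tween80 is CMCTween). Krt16, Krt17, Krt14 and Krt5 are highest in both Cisplatin libraries, Krt10 is lowest in Repatha, and the Krt8 libraries of several groups lie far apart.

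Other Stomach contrasts moved keratins as well. In Olanzapine, 5 of 16 rose and 3 fell beside 14.5% of all genes: Krt1 stood at 490.1 and 903 CPM against 251 to 464 CPM in the other libraries of set B (1.02 ± 0.14, adjusted p = 7.87e-06), and Krt8 at 296 and 66.2 CPM against 307 to 673 CPM (-1.47 ± 0.34, adjusted p = 0.00319). Krt13, Krt14, Krt4 and Krt5 rose, and Krt19 (-1.93 ± 0.42, adjusted p = 0.00204) and Krt18 (-0.88) fell. These calls rest on Olanzapine replicate 2, which held 29.4 CPM of Krt19 against 266 CPM in replicate 1, and 0 keratins passed in edgeR without it, with 5 at an unadjusted p under 0.05. Genes of simple epithelium summed to 774 to 999 CPM in Olanzapine and 1096 to 1505 CPM in the others. Genes of stratified epithelium moved with the rises: 8 of 11 cornified epidermis markers, 3 of 7 squamous mucosa markers and 5 of 8 desmosome and linker genes rose, and the desmosome list summed to 2289 to 2947 CPM against 1407 to 1937 CPM. The part of these lists was not tested. In Repatha, an antibody that lowers cholesterol, 2 of 16 fell beside 0.0685% of all genes. They were the partners Krt1 (184 and 191 CPM against 421 and 445 CPM, log2 fold change -1.16 ± 0.19, adjusted p = 0.00236) and Krt10 (1998 and 2323 CPM against 4564 and 4469 CPM, -1.02 ± 0.19, adjusted p = 0.0132). Both were below all 16 other libraries of set C. The cornified epidermis markers summed to 2533 to 2841 CPM in Repatha and 3256 to 6807 CPM in those 16, and the squamous mucosa markers to 962 to 1056 CPM and 1162 to 3589 CPM, so both lists were low in the same libraries. The share of forestomach is not given here either, and its part was not tested.

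In the Thymus of Cisplatin, 8 of 9 tested keratins rose and 0 fell, beside 43.6% of all genes, with a median log2 fold change of 1.19 against 0.02 for all genes. Krt18 rose from 120.3 and 123 CPM to 293 and 302 CPM (1.19 ± 0.18, adjusted p = 5.13e-07). Its partner Krt8 did not follow, at 119 and 116 CPM and 105 and 99.9 CPM (-0.31 ± 0.16, adjusted p = 0.118). Krt14 of the medulla rose from 22.6 and 24.9 CPM to 70.1 and 80.9 CPM (1.58 ± 0.32, adjusted p = 9.22e-05), and Krt5 by less (0.62 ± 0.20, adjusted p = 0.0108). Krt17 (0.99 ± 0.18, adjusted p = 2.58e-05), Krt10 (1.57) and Krt7 (1.14) rose too. Krt15 had 0 counts in CMCTween and 17 in Cisplatin, at least 5.51-fold higher by a floor of 3 counts over the group, while other libraries of set C reached 27.2 CPM. Krt23 had 2 counts and 41, a ratio of 19.9 with a 95% counting interval of 5.18 to 170.

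Genes of immature T cells, chosen after their values were seen, were low in the same libraries. Rag1 stood at 1723 and 1761 CPM in CMCTween and at 11.1 and 42.2 CPM in Cisplatin. Dntt stood at 646 and 639 CPM and at 15.6 and 16.4 CPM. Epithelial genes did not move as 1 block. Epcam (1.69) and Cdh1 (2.19) rose as did Trp63 (1.77), while the cortical epithelial genes Prss16 (-2.64), Ccl25 (-1.90) and Psmb11 (-1.60) fell. Msln, a marker of the mesothelium around organs, rose as well (2.71). The part of these cells in the keratin values was not tested. Without CMCTween replicate 3, the rises of Krt10 (1.27), Krt7 (0.92), Krt5 (0.61) and Krt15 (6.04) no longer passed the threshold.

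A joint fit tested whether the response to Cisplatin differed between tissues. Between Stomach and Thymus, 7 of 16 keratins differed beside 21.6% of all genes. Only Krt5 rose more in Stomach (log2 difference 1.03 ± 0.29, adjusted p = 0.00667), and the other 6, among them Krt18 (-1.61 ± 0.34, adjusted p = 0.00024) and Krt23 (-3.66 ± 0.70, adjusted p = 6.27e-05), were lower in Stomach relative to Thymus. Between Skin and Kidney, 2 of 32 differed beside 14.1% of all genes, Krt5 (-6.46 ± 2.1, adjusted p = 0.0304) and Krt15 (-4.02 ± 1.40, adjusted p = 0.046). Without CMCTween replicate 3 of Skin the same 2 genes differed, by -6.67 and -4.54. In Kidney both genes were near the limit of counting, with Krt5 at 0 in both CMCTween libraries and at 3.02 and 6.39 CPM in Cisplatin. Krt5 did not pass the low-count filter in the fit of Kidney alone.

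In the Kidney of Cisplatin, a drug known to injure renal tubules, 4 of 5 tested keratins rose beside 22.9% of all genes. Krt8 rose from 48.8 and 37.1 CPM to 196 and 112 CPM (1.78 ± 0.24, adjusted p = 2.11e-07), and Krt18 from 5.54 and 6.96 CPM to 42.2 and 17.9 CPM (2.20 ± 0.45, adjusted p = 0.000229). Krt7, known from ducts, rose from 49.9 and 53.3 CPM to 131 and 71.5 CPM (0.91 ± 0.23, adjusted p = 0.00226). The groups did not overlap for these 3 genes, but Cisplatin replicate 1 was the higher library in each, and 2 keratins passed without it. Krt15 had 1 count in CMCTween and 21 in Cisplatin, a ratio of 20.9 with a 95% counting interval of 3.35 to 862, while other libraries of set C reached 35.3 CPM. Of 6 genes of simple epithelium 5 rose, among them Cldn4 (3.35), and so did Vim (1.61), the filament protein of mesenchymal cells.

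In the Liver of APAP, a drug known to injure hepatocytes, 1 of 5 tested keratins changed beside 16.5% of all genes. Krt8 stood at 42.9 and 46.5 CPM in APAP, at 135 and 129.8 CPM in Untreated and at 82.0 and 85.1 CPM in Sucrose, and fell against the mean of both controls (-1.20 ± 0.22, adjusted p = 0.000256). Krt18 stood at 93.4 and 105 CPM in APAP, at 169 and 152 CPM in Untreated and at 154 and 111 CPM in Sucrose (-0.51 ± 0.19, adjusted p = 0.057). The controls differed between themselves: Krt8 was lower in Sucrose than in Untreated (-0.77 ± 0.21, adjusted p = 0.0117), the 1 call of 5 there beside 13.1% of all genes. APAP lay below both.

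In the gut, Cisplatin changed few keratins and not the same ones. In Ileum 2 of 6 fell beside 29.1% of all genes: Krt19 stood at 272 and 247 CPM against 493 to 1614 CPM in the other libraries of set C (-1.80 ± 0.28, adjusted p = 1.06e-05), and Krt8 at 399 and 416 CPM against 468 to 1638 CPM (-1.22 ± 0.29, adjusted p = 0.00196). Of 5 genes of simple epithelium 4 fell and 1 rose with them. In Jejunum 2 of 7 rose beside 5.67% of all genes. Krt23 stood at 74.8 and 87.8 CPM against 3.13 to 12.2 CPM in the others (3.68 ± 0.46, adjusted p = 1.53e-05), with no overlap, and Krt18 rose by less (1.14 ± 0.33, adjusted p = 0.0395). In Colon 2 of 9 changed beside 10.5% of all genes, both at low counts. Krt36, a hair shaft keratin, had 2 counts in CMCTween and 23 in Cisplatin, a ratio of 12.3 with a 95% counting interval of 3.04 to 108. Krt17 had 11 counts and 0, at least 3.43-fold lower by a floor of 3 counts over the group. Whether these tissues differ from each other in response was not tested.

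In ParotidG and ThyroidG, Cisplatin raised 1 keratin each. In ParotidG, Krt18 stood at 178 and 139 CPM against 54.2 and 40.5 CPM in CMCTween (1.39 ± 0.26, adjusted p = 0.000605), the 1 call of 6 beside 5.68% of all genes. In ThyroidG, Krt7 stood at 235 and 234 CPM against 88.2 and 90.9 CPM (1.09 ± 0.23, adjusted p = 0.00658), the 1 call of 8 beside 3.71%. Both were above all 16 other libraries of their set. Sucrose lowered 3 of 6 keratins in ParotidG beside 15% of all genes. Krt8 stood at 24.3 and 35.1 CPM against 86 and 77.9 CPM in Untreated (-1.81 ± 0.23, adjusted p = 1.6e-06), and Krt23 (-1.15) and Krt18 (-0.79) fell by less. In the Thymus of APAP, 2 of 9 fell beside 25.5% of all genes, the partners Krt8 (-0.93 ± 0.15, adjusted p = 3.41e-06) and Krt18 (-0.84 ± 0.15, adjusted p = 4.82e-05), and of 6 genes of thymic epithelium 4 fell and 1 rose.

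In Eye, the corneal keratin Krt12 ran from 75.9 to 3283 CPM over 36 libraries, with a median of 1437 CPM, and moved with the basal keratins of the same libraries. Of the 9 libraries with the least Krt12, 8 were among the 9 with the least Krt5 and 8 among the 9 with the least Krt15. Lurasidone and Repatha each had both libraries low. In Lurasidone, 3 of 12 keratins fell beside 2.34% of all genes. Krt12 stood at 127 and 149 CPM against 392 to 3283 CPM in the other libraries of set B (-3.80 ± 0.70, adjusted p = 0.00542), Krt5 at 19.5 and 72.1 CPM (-3.84 ± 0.72, adjusted p = 0.00571) and Krt15 at 23.7 and 141 CPM (-2.58 ± 0.59, adjusted p = 0.016). In Repatha, Krt12 was the 1 call of 12 (-2.81 ± 0.73, adjusted p = 0.0432), beside 1.22% of all genes, at 75.9 and 168 CPM against 1632 and 363 CPM in CMCTween, whose libraries lay far apart. Other genes of cornea and conjunctiva summed to 427 to 531 CPM in Lurasidone, below the 659 to 2851 CPM of the other libraries of set B, and to 359.7 to 456 CPM in Repatha, below the 508 to 2727 CPM of set C. How much cornea each sample held is not given, and its part in these values was not tested.

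**Figure D5:**
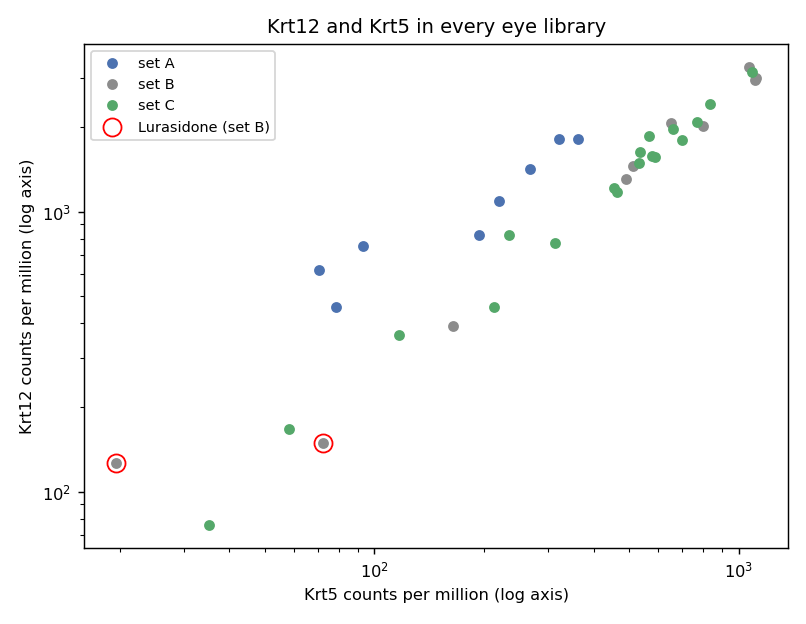
Krt12 against Krt5 (CPM, both axes log) in the 36 Eye libraries, coloured by library set, with the 2 Lurasidone libraries circled. The points lie along a rising band, and the libraries of set A hold 70.3 to 361 CPM of Krt5 with 458 to 1818 CPM of Krt12, to the left of the libraries of sets B and C with as much Krt12.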

How the data were processed

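Per the labels' protocols, tissues were flash frozen, RNA was taken with Trizol and libraries were made with a 3′ mRNA kit; the series' design text gives sequencing on an Illumina NextSeq. The values are raw gene counts deposited by the authors, 1 table per tissue. The submitters' processing notes name bcl2fastq 2.17, TopHat2 2.1.1, HTSeq 0.9.1 and mm10, with no role or order. Each gene's count is of 3′ ends, so it does not scale with transcript length. Of the 46 keratins with a gene model, none shared an exact stretch of 50 bases within the last 300 bases with a transcript of another gene; Krt85 was not checked.

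CPM used column sums. Each tissue was fitted with edgeR 4.0.16 (R 4.3.3) over its 18 groups: filterByExpr at a minimum count of 10, TMM, the quasi-likelihood F test and Benjamini-Hochberg adjustment within a contrast at 0.05. The 48 untreated libraries were fitted together, with 5 pairs of tissues tested. SE was taken as the absolute log2 fold change divided by the root of F. A CPM level uses 2 to 4 libraries and a shallow library resolves few counts, so low keratins carry counting error. Alternatives were RLE scaling, no filter, a replicate block, another reference within the set, a fit of the set alone, DESeq2 1.42.0 and leaving out each library. The fit of Stomach Cisplatin was also run on simulated data, whose result is not given here and is not used as support.

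The keratins, the marker lists, the comparisons and the library sets were chosen with earlier results of these data known. Named were, untreated, the 5 highest keratins of Skin, Stomach, Eye, Colon, Thymus and Lung, the 3 highest of other tissues and the partner pairs. In a drug comparison up to 8 called keratins per direction with 5 CPM or more and the partners were named. Intervals and floors of 3 counts cover counting error only.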

Additional observations from a re-analysis of the deposited data

Results flagged for a closer look

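The response to Cisplatin differed between tissues for 9 pairs of a keratin and 2 tissues, by the interaction term of a joint edgeR quasi-likelihood fit with Benjamini-Hochberg adjustment over all genes. A negative value means a response that was lower in the tissue named first. For Stomach minus Thymus, the log2 difference was -7.22 (adjusted p = 0.00253) for Krt79, -5.90 (adjusted p = 0.0161) for Krt15, -3.66 (adjusted p = 6.27e-05) for Krt23, -1.61 (adjusted p = 0.00024) for Krt18, -1.48 (adjusted p = 0.0413) for Krt7 and -1.41 (adjusted p = 0.0249) for Krt10, and it was 1.03 (adjusted p = 0.00667) for Krt5. Krt79 stood at 6.98 and 13.2 CPM in Stomach with CMCTween and at 1.40 and 3.48 CPM with Cisplatin, and in Thymus it had 0 in both CMCTween libraries and 2.22 and 6.89 CPM with Cisplatin. Krt15 in Thymus also had 0 counts in CMCTween, so the sizes of these 2 differences depend on how 0 is modelled. Krt79 did not pass the low-count filter in the fit of Thymus alone.

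For Skin minus Kidney, the log2 difference was -6.46 (adjusted p = 0.0304) for Krt5 and -4.02 (adjusted p = 0.046) for Krt15. Krt5 did not pass the low-count filter in the fit of Kidney alone and was near the limit of counting there. In Kidney, Krt15 stood at 1.11 and 0 CPM in CMCTween and at 8.04 and 16.6 CPM in Cisplatin. In Skin, Krt15 stood at 1622 and 3725 CPM in CMCTween and at 2375 and 3059 CPM in Cisplatin.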

How the results depend on the processing

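The count of 229 keratin calls over all contrasts was 480 with no low-count filter and 135 without CMCTween replicate 3 of Skin, a choice made after seeing the data. Within 1.5 times of 229 were 233 with RLE, 173 with another reference, 173 in fits of the set alone, 171 with DESeq2 and 230 without Untreated replicate 1 of ThyroidG. With another reference (the mean of all other groups in set C, Untreated alone in set A), the calls were 10 in Skin Dox, 8 in Skin Cisplatin, 0 in Skin EMPA, Aripiprazole, Clozapine and Repatha, 2 in Skin Lenalidomide, 11 in Stomach Cisplatin and 2 in Liver APAP. In fits of the set alone they were 0 in Skin EMPA, Clozapine, Lenalidomide and Repatha, 9 in Skin Aripiprazole and 2 in Liver APAP. DESeq2 called 11 in Skin Cisplatin, 10 in EMPA, 10 in Aripiprazole, 7 in Clozapine, 6 in Lenalidomide, 8 in Repatha and 11 between untreated Skin and Stomach. Without the filter Liver APAP had 4 and untreated Kidney against Liver 7. The causes were not tested. The number of tests and the share of all genes under each setting are not given beside these counts or those below, so they do not set keratins apart. TMM-scaled library sizes gave summed keratin levels of 11732 CPM in Skin, 6695 in Stomach, 2255 in Colon, 465 in Thymus and 413 in Lung.

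With 1 library left out at a time, the calls ranged from 2 to 4 in Kidney Cisplatin, 1 to 2 in Liver APAP, 5 to 25 in Skin Dox, 6 to 24 in Skin Cisplatin, 0 to 23 in Skin EMPA, Aripiprazole, Clozapine and Repatha, 0 to 24 in Skin Lenalidomide, 3 to 7 in Stomach Cisplatin, 5 to 9 in Thymus Cisplatin and 0 to 10 in Stomach Olanzapine. Between untreated tissues they ranged from 17 to 19 (Skin and Stomach), 20 to 21 (Skin and Eye), 13 to 15 (Stomach and Colon), 0 to 1 (Colon and Ileum) and 3 to 6 (Kidney and Liver). Summed levels ranged as the 2 libraries, 13731 to 14598 CPM in Skin, 6870 to 7152 in Stomach, 2692 to 3000 in Colon, 979 to 1421 in Eye, 563 to 632 in Thymus and 516 to 574 in Lung. For named keratins, 368 of 421 values under alternatives kept direction and call, 52 lost the call, and Krt17 in Skin Cisplatin changed sign without CMCTween replicate 3 (range with 1 library left out -1.20 to 0.025).

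The labels tie no replicate number to an animal or day, so a replicate block shows no pairing. The block gave 166 calls over all contrasts, 2 in Liver APAP and 0 in Skin EMPA and Aripiprazole. The deviations of same-numbered Skin libraries of CMCTween correlated at -0.07 with Dox, 0.19 with Clozapine and -0.26 with Lenalidomide over 6805 genes.

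Depth limits the low keratins: 3 counts are 6.65 CPM in the shallowest library, and 10 keratins passed the filter in no tissue. With 2 libraries a group, a call can rest on 1 library, as in Skin and Stomach above. Library sets and treatments cannot be told apart across sets. The strand setting of the counting is not given in the sources used here.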

Other observations

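Basal keratins appeared in single libraries of tissues where the other libraries held little. A search for libraries with over 10 times the median of their tissue's other libraries, and at least 20 CPM, found 25 pairs of a library and a keratin list, in 20 libraries of 11 tissues. The sum of Krt5, Krt14 and Krt15 was 72.9 CPM in Skull Dox replicate 3 against a median of 1.65 CPM. It was 62.0 CPM in Testis Risedronate replicate 2 and 52.8 CPM in Testis Olanzapine replicate 2 against 1.60 CPM. In Liver it was 45.6 CPM in Alendronate replicate 2 and 39.2 CPM in Sucrose replicate 1 against 1.18 CPM. In AdrenalG it was 25.8 CPM in Alendronate replicate 1 against 0.505 CPM.

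In Pancreas both Sucrose libraries stood out, with 23.8 and 39.6 CPM of basal keratins against a median of 1.41 CPM. Pancreas Sucrose replicate 2 and Sofosbuvir replicate 1 were also high in suprabasal keratins, at 49.9 and 49.9 CPM.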
